A study of Mus musculus with 6 samples.

Results

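Protein arginine methyltransferases are enzymes that put methyl groups on arginine side chains of histones, splicing factors and other proteins. The 8 genes described are Prmt1, Prmt2, Prmt3, Carm1, Prmt6, Prmt5, Prmt7 and Wdr77, the gene of a protein that works as the partner of PRMT5. They were selected by gene symbol and are 8 of the 34745 genes in the deposited tables.

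Type I enzymes, here those of Prmt1, Prmt2, Prmt3, Carm1 and Prmt6, leave both methyl groups on the same nitrogen of arginine, a mark called asymmetric dimethylarginine. The type II enzyme PRMT5 puts them on different nitrogens, giving symmetric dimethylarginine, and the type III enzyme PRMT7 adds a single methyl group. All of them take the methyl group from S-adenosylmethionine (SAM). In blood formation PRMT1 is known to methylate the transcription factor RUNX1, and adult mice that lose Prmt5 lose their haematopoietic stem cells (HSCs).

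The study asked what the Mediator subunit MED23 does in HSCs, and compared bulk RNA-seq of 3 KO and 3 WT samples, numbered 1 to 3 in each group. All came from bone marrow of adult C57BL/6 mice, and the cells were double sorted as CD150+ CD34- CD48- LSK, where LSK stands for lineage-negative, Sca1-positive, cKit-positive. The KO genotype is labelled KO(Mx1-cre;Med23floxp/flowp) and the WT genotype WT(Med23floxp/flowp): both carry floxed Med23, and the WT mice were littermates without Cre. Cre was switched on with poly(I:C), because the Mx1 promoter responds to interferon in many cell types, not in HSCs alone; whether the WT mice also received poly(I:C), and how long before the sort, is not given for these libraries in the sources used here. The labels name SMART-Seq v4 amplification, the methods name a TruSeq kit, and neither names molecular identifiers. Poisson intervals of counts, and floors, therefore cover counting error only. SEs and intervals of fold changes were derived from the edgeR estimate and its test statistic, and also carry the spread between these samples. The labels do not state that the samples of a group came from separate animals, and every p-value measures only the spread between these samples.

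Reads counted on genes summed to 4750410, 8131344 and 3537269 in WT replicates 1 to 3 and to 4760545, 5281232 and 5132601 in KO replicates 1 to 3. Expression is given below as CPM, read counts put on the same depth in every library with edgeR's TMM method, with values always in the order of replicates 1, 2 and 3. A fold change is the edgeR estimate of KO over WT on the log2 scale, and a gene was called when its Benjamini-Hochberg adjusted p, over the 12513 genes with enough counts to be tested, was under 0.05.

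Med23 itself (ENSMUSG00000019984, chromosome 10 from 24869986 to 24913681 in GRCm38) was at 47.6, 70.8 and 24.1 CPM in WT and at 31.6, 29.8 and 36.8 CPM in KO. The library labelled WT replicate 3 was below every KO library, so the groups overlapped and Med23 did not separate the labels. For Med23 the log2 fold change was -0.54 (SE 0.41, 95% interval -1.46 to 0.38, edgeR adjusted p 0.989). With the library labelled WT replicate 3 left out, the Med23 estimate was -0.85, with an edgeR adjusted p of 0.671, and with WT replicate 2 left out it was -0.13. With replicates 1 and 2 alone it was -0.93, and over the 16 alternatives its edgeR, DESeq2 or limma adjusted p was between 0.671 and 1.0. The deposited values count reads over whole genes, so reads from a deleted exon cannot be set apart. The study itself reports efficient loss of Med23 in the blood system after poly(I:C). The study gives Egr1 as reduced without Med23, from its bulk RNA-seq. Egr1, named here after its values were seen, was at 86.3, 72.1 and 102.3 CPM in WT and at 6.48, 6.01 and 2.83 CPM in KO. On Egr1 the library labelled WT replicate 3 lay with the other WT libraries, and on Med23 it did not. Egr1 was picked for its difference in these same data, so its placing is no independent check of the labels.

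Replicate 3 of both groups stood apart from the other libraries in its Y-linked genes. The 4 Y-linked genes summed to 1036, 1855 and 1 counts in WT and to 1529, 1606 and 0 counts in KO. Each member's fold change is therefore also given with replicates 1 and 2 alone.

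A list of 9 HSC marker genes had counts of all 9 in every library, and they summed to 1977, 2139.6 and 2069 CPM in WT and to 1876, 1786 and 1704 CPM in KO. Kit was the most abundant of them in each library. Every KO sum was below every WT sum, but the genes went in different directions. In Kit, Ly6a and Hlf every KO library was below every WT library, in Mecom and Hoxa9 every KO library was above, and in the other 4 the groups overlapped. The part of these differences in the values of the members was not tested. The 3 genes of gated-out progenitors, led by Cd34, summed to 340.6, 414 and 422 CPM in WT and to 566, 428 and 521 CPM in KO. Every KO sum of these 3 genes was above every WT sum, as was Cd34 itself, and the part of this in the values of the members was not tested. Among them Cd48 was at 0 in the library labelled WT replicate 3 and in every KO library, and Cd34 transcripts were present although the cells were sorted as CD34-negative at the surface.

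Marker genes of 6 other cell types were also counted. The 8 skeletal muscle genes summed to 149.9, 118 and 288 CPM in WT, with Myh3 the most abundant, and to 3.44, 6.92 and 4.05 CPM in KO, where Actc1, Myh3, Myh8 and Tnnc2 were at 0. The 6 mature granulocyte genes summed to 3.08, 2.58 and 8.65 CPM in WT and to 1.82, 0.728 and 9.92 CPM in KO; S100a9 led in 5 libraries and S100a8 in KO replicate 2, and Ltf and Mmp8 were at 0 in all 6. The 5 monocyte or macrophage genes summed to 395, 522 and 533 CPM in WT and to 410.5, 466 and 481 CPM in KO, nearly all of it from Lyz2, while Ccr2 was at 0 in every library but WT replicate 2, and Adgre1 was at 0 in WT and at 0.405, 2.00 and 4.05 CPM in KO. The 6 erythroid genes summed to 25.4, 28.3 and 51.6 CPM in WT and to 30.6, 26.03 and 56.3 CPM in KO, led by Hbb-bt. The 5 B cell genes, led by Cd79b with Ms4a1 and Pax5 at 0 in every library, summed to 44.3, 60.0 and 68.0 CPM in WT and to 53.7, 63.5 and 73.5 CPM in KO. Of the 5 T cell genes Cd4 alone had counts, at 9.64, 0.123 and 4.33 CPM in WT and at 0, 2.55 and 0 CPM in KO. The muscle sums were higher in every WT library than in any KO library, and the part of the muscle signal in any value of a member was not tested. In bulk samples, fewer cells of a type and less RNA per cell cannot be told apart.

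All 8 members passed the filter on low counts, and edgeR called 0 of the 8 (0.0719% of all tested genes were called, 2 higher and 7 lower in KO). At an unadjusted p under 0.05 it had 0 of the 8 members, against 5.71% of all tested genes. DESeq2 also called 0 of the 8 (1.04% of its 14441 genes), as did limma voom with sample quality weights (0.0%). In 1 member, Prmt2, every KO library was above every WT library, which held for 6.25% of tested genes. In 0 members was every KO library below every WT library, which held for 6.15% of tested genes, and the other 7 members overlapped. Of the 8 fold changes 2 were above 0, those of Prmt2 and Prmt6, and 6 were below 0, of which Carm1 moved above 0 with limma voom and on log2 FPKM. That count above 0 was 5 with replicates 1 and 2 alone (Carm1, Prmt5 and Wdr77 added) and ran from 1 to 4 with single libraries left out. Of all tested genes 49.5% were above 0. The median log2 fold change was -0.13 over the members and -0.0054 over all tested genes. Of the 8 members 6 had an SE below the median of 0.42 over all tested genes, while Prmt1 (0.86) and Prmt2 (0.45) were above it. The 95% intervals of all 8 held 0.

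**Figure D1:**
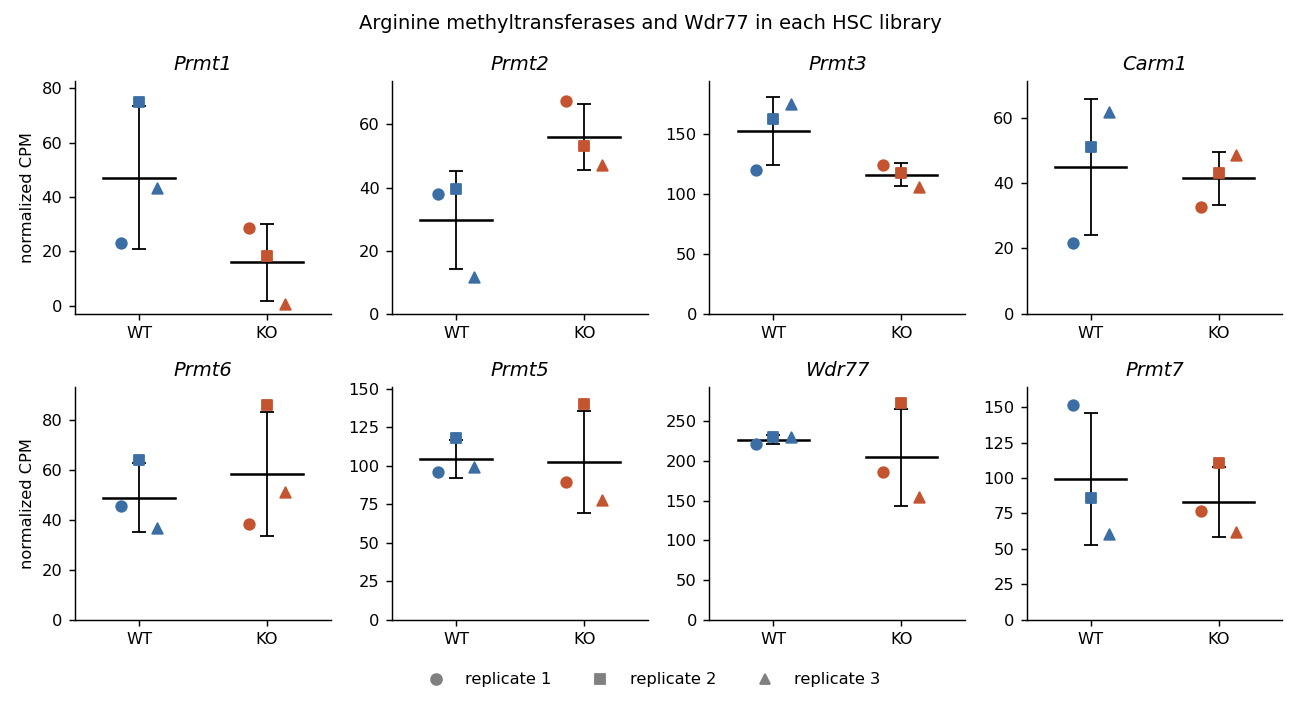
Normalised expression (CPM) of the 8 members in each of the 6 libraries, 1 panel per gene; points are libraries, their shape gives the replicate, and bars are the group mean and SD (n = 3). Prmt1 is near 0 in KO replicate 3, and in Prmt2 the 3 KO points lie above the 3 WT points.

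Among the type I enzymes, Prmt1 encodes the one that makes most of the asymmetric dimethylarginine in mammalian cells. Its gene is listed in the deposited tables as ENSMUSG00000052429, an identifier that GENCODE M21 does not hold; by symbol it lies on chromosome 7 from 44975989 to 44986568 (minus strand, GRCm38). Prmt1 was at 23.2, 75.0 and 43.3 CPM in WT, from 113, 610 and 140 counts, and at 28.8, 18.4 and 0.809 CPM in KO, from 142, 101 and 4 counts. WT replicate 2 was highest and KO replicate 3 far below the rest, while KO replicate 1 was above WT replicate 1, so the groups overlapped. The highest library held 92.6 times the level of the lowest, the widest range of the 8 members. For the 4 counts of KO replicate 3, the exact Poisson 95% interval is 0.221 to 2.07 CPM, which covers counting error alone. The group means were 47.1 ± 26.1 CPM in WT and 15.99 ± 14.1 CPM in KO (SD, n = 3 each), and the log2 fold change of Prmt1 was -1.56 (SE 0.86, 95% interval -3.48 to 0.35, edgeR adjusted p 0.943; exact two-sided permutation p 0.2). That permutation test, of 3 samples against 3, cannot give a p under 0.1.

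The size of the Prmt1 difference rested on single libraries. Without KO replicate 3 the log2 fold change of Prmt1 was -0.999 (edgeR adjusted p 0.962), and without WT replicate 2 it was -1.05 (edgeR adjusted p 0.970). With replicates 1 and 2 alone it was -1.05 (edgeR adjusted p 0.868). Estimates farther from 0 came from leaving out KO replicate 1 (-2.29), from limma voom (-2.24) and from limma on log2(FPKM + 0.1) (-2.36). Over the 15 alternatives that gave a value for Prmt1, its edgeR, DESeq2 or limma adjusted p was between 0.592 and 1.0. A drop in 1 library to more than 10-fold below the next lowest was also counted over 10137 genes with a mean of at least 50 counts. KO replicate 3 had 17 such genes (0.168%), Prmt1 among them, while WT replicate 3 had 70 and the other 4 libraries had 11, 6, 5 and 7. A processed pseudogene of Prmt1, AC148336.1, matches its transcripts over 1038 bases at 91.4% identity and is not in the deposited tables, so Prmt1 counts are uncertain to the extent that reads were shared with it.

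The genes whose profile over the 6 libraries was most like that of Prmt1 were Mlph, Sergef and Lrp4. Likeness was the root mean square difference of log2 CPM, each gene centred on its own mean, over 10136 genes: 0.598 for Mlph, 0.677 for Sergef and 0.709 for Lrp4, with a median of 2.10 over all of them. Mlph was at 3.69, 31.0 and 12.7 CPM in WT and at 6.48, 7.83 and 0.405 CPM in KO. Sergef was at 19.3, 20.3 and 15.8 CPM in WT and at 18.2, 14.6 and 0.809 CPM in KO. Lrp4 was at 7.18, 10.1 and 25.96 CPM in WT and at 16.2, 7.10 and 0.202 CPM in KO. All 3 share with Prmt1 the low value in KO replicate 3. Across these 6 libraries that single value sets much of the measure.

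Prmt2 (ENSMUSG00000020230, chromosome 10 from 76207222 to 76237865, minus strand) encodes a type I enzyme of low activity that also acts as a coactivator of nuclear receptors. It was at 37.9, 39.6 and 11.7 CPM in WT, from 185, 322 and 38 counts, and at 67.5, 53.1 and 47.1 CPM in KO, from 333, 292 and 233 counts. All 3 KO libraries were above all 3 WT libraries, and the library labelled WT replicate 3 was lowest, as it was for Med23. The group means were 29.7 ± 15.6 CPM in WT and 55.9 ± 10.4 CPM in KO (SD, n = 3 each). The log2 fold change of Prmt2 was 0.90 (SE 0.45, 95% interval -0.10 to 1.90, edgeR adjusted p 0.928; exact two-sided permutation p 0.1, the smallest possible). With the library labelled WT replicate 3 left out it was 0.53 (edgeR adjusted p 0.828), and with replicates 1 and 2 alone 0.65 (edgeR adjusted p 0.863). The difference was not called under any of the 16 alternative settings, in which its edgeR, DESeq2 or limma adjusted p was between 0.541 and 1.0.

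Among the type I genes Prmt1 and Prmt2 had the largest fold changes in either direction, and Prmt5 is the gene of the type II enzyme. None of these genes was called. Their upstream sequences are shown here. They come from the RefSeq promoter table of GRCm38.p6, in which 7 of the 8 members were matched, Carm1 being the other. Each is the part of the 250 bases before the RefSeq start that lies outside every annotated exon, 5′ to 3′ on the strand of the gene: chr7:44986569-44986670 (minus strand, 102 bases, ending 148 bases before the start) for Prmt1, chr10:76237866-76238115 (minus strand, 250 bases) for Prmt2 and chr14:54517526-54517720 (minus strand, 195 bases, ending 55 bases before the start) for Prmt5. Capitals mark matches on either strand, none of which overlap, to TATAAA (the TATA box), to CCAAT (the CCAAT box), to GGGCGG (the GC box), to CACGTG (the E-box), to CCGGAAG (the ETS core) and to TGACGTCA (the CRE core).
Prmt1: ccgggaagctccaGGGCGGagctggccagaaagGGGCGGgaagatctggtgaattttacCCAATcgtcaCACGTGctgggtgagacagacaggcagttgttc
Prmt2: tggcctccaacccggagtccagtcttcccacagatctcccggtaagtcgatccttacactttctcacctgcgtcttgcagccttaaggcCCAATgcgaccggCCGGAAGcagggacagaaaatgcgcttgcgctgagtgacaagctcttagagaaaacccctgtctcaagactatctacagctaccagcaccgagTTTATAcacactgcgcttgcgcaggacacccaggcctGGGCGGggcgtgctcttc
Prmt5: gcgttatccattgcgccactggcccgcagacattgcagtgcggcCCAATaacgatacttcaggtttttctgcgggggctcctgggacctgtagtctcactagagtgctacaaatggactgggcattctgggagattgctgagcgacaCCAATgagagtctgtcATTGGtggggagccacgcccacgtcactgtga

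The Prmt1 stretch holds 2 matches to GGGCGG, 1 to CCAAT and 1 to CACGTG. Of the 32851 RefSeq windows cut to the same length and position, 10.7% hold GGGCGG, 13.8% CCAAT and 1.79% CACGTG. In the Prmt2 stretch there is 1 match to TATAAA (held by 12.4% of windows of its length and position), 1 to CCAAT (33.9%), 1 to GGGCGG (32.7%) and 1 to CCGGAAG (6.91%). The Prmt5 stretch holds 3 matches to CCAAT, a motif present in 27.6% of such windows, and none to the other 5 motifs. The share of G and C was 58.8% for Prmt1, 57.2% for Prmt2 and 55.9% for Prmt5. The median over all windows was 52.4%, taken at their full 250 bases and not cut to match the Prmt1 and Prmt5 stretches. A match describes the letters only, and no binding was measured in these libraries.

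Prmt3 (ENSMUSG00000030505, chromosome 7 from 49778346 to 49858265, plus strand) encodes the cytosolic type I enzyme that methylates the ribosomal protein RPS2. It was at 119.9, 162 and 174 CPM in WT and at 124, 118 and 105 CPM in KO. KO replicate 1 was just above WT replicate 1, the other KO libraries were below every WT library, and so the groups overlapped through WT replicate 1. The group means were 152 ± 28.6 CPM in WT and 116 ± 9.52 CPM in KO (SD, n = 3 each). The log2 fold change of Prmt3 was -0.39 (SE 0.23, 95% interval -0.91 to 0.12, edgeR adjusted p 0.959; exact two-sided permutation p 0.2). With replicates 1 and 2 alone it was -0.21, and it stayed below 0 in each of the 16 alternatives.

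Carm1 (ENSMUSG00000032185, chromosome 9 from 21546894 to 21592623, plus strand) encodes a type I coactivator that methylates histones, splicing factors and transcription regulators. It was at 21.7, 51.0 and 61.8 CPM in WT and at 32.6, 43.0 and 48.6 CPM in KO. The WT libraries spread more widely than the KO libraries, which lay between them, so that no difference larger than the spread was seen. For Carm1 the estimate on the log2 scale was -0.11 (SE 0.42, 95% interval -1.04 to 0.81, edgeR adjusted p 0.997; exact two-sided permutation p 1.0), and it was 0.064 with replicates 1 and 2 alone. Carm1 shares 1025 of its 4852 exon bases with Yipf2 on the opposite strand. Whether strand was used in counting is not given in the sources used here, so reads from this stretch are uncertain between Carm1 and Yipf2.

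Prmt6 (ENSMUSG00000049300, chromosome 3 from 110246109 to 110250998, minus strand) encodes a nuclear type I enzyme that methylates histones. It was at 45.5, 63.9 and 36.8 CPM in WT and at 38.1, 85.9 and 51.0 CPM in KO. KO replicate 2 was highest, the library labelled WT replicate 3 lowest, and the groups overlapped. Prmt6 had a log2 fold change of 0.26 (SE 0.38, 95% interval -0.58 to 1.09, edgeR adjusted p 0.997; exact two-sided permutation p 0.6). Without KO replicate 2 it was -0.13, and with replicates 1 and 2 alone it was 0.20. The gene C130013H08Rik covers 984 of the 4197 exon bases of Prmt6 on the opposite strand, but had 31 counts over all 6 libraries.

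The type II enzyme gene Prmt5 (ENSMUSG00000023110, chromosome 14 from 54507187 to 54517525, minus strand) encodes the main source of symmetric dimethylarginine, also on the Sm proteins of the spliceosome. Prmt5 was at 96.0, 118 and 98.9 CPM in WT and at 89.5, 140.1 and 77.5 CPM in KO. KO replicate 2 was above all WT libraries and the other KO libraries were below them, so the KO group enclosed the WT group. The group means were 104 ± 12.1 CPM in WT and 102 ± 33.2 CPM in KO (SD, n = 3 each). The log2 fold change of Prmt5 was -0.028 (SE 0.28, 95% interval -0.65 to 0.59, edgeR adjusted p 0.997; exact two-sided permutation p 0.8), and 0.11 with replicates 1 and 2 alone.

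Wdr77 (ENSMUSG00000000561, chromosome 3 from 105959369 to 105970037, plus strand) encodes MEP50, the WD-repeat protein that binds PRMT5 and presents substrates to it. It was at 220.6, 229.6 and 230.2 CPM in WT and at 186, 272 and 155 CPM in KO. The WT libraries lay within a coefficient of variation of 2.37%, against 29.7% in KO, where replicate 2 was above and replicates 1 and 3 below every WT library. This is the same placing of libraries as in Prmt5. Whether the spread of Wdr77 differs between the groups was not tested. Wdr77 had a log2 fold change of -0.15 (SE 0.24, 95% interval -0.68 to 0.38, edgeR adjusted p 0.997; exact two-sided permutation p 0.4), and 0.040 with replicates 1 and 2 alone. Wdr77 shares 337 of its 4841 exon bases with Atp5f1 on the opposite strand (8198 counts over the 6 libraries) and 1389 with Gm42890 on its own strand (49 counts). A copy of it, Gm15528, matches over 869 bases at 94.6% identity and is not in the deposited tables. Wdr77 counts are uncertain to that extent.

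**Figure D2:**
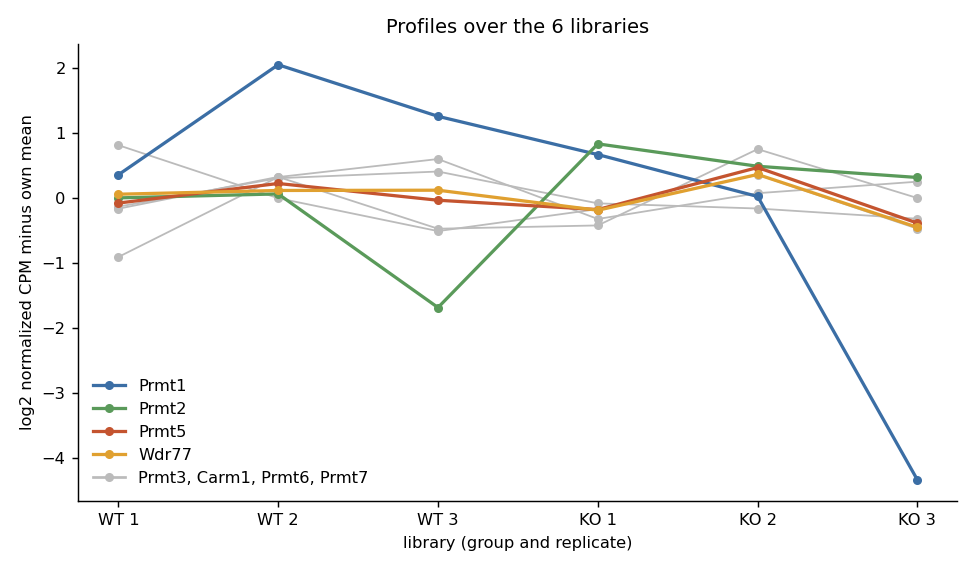
Log2 CPM of each member in each of the 6 libraries, centred on the mean of that member; lines only join the points of a gene and stand for no order. Prmt5 and Wdr77 run together, with a root mean square difference of 0.11, the smallest of the 28 pairs, and Prmt1 drops in KO replicate 3.

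The genes most like Prmt5 over the 6 libraries were Elp5, Hif3a and Wdr77, in that order among 10136 genes. Their root mean square differences from Prmt5 were 0.0501, 0.0853 and 0.108, with a median of 0.494 over all of the genes. Elp5 was at 53.7, 65.5 and 51.6 CPM in WT and at 48.0, 75.9 and 45.1 CPM in KO. Hif3a was at 29.3, 32.2 and 31.5 CPM in WT and at 28.8, 44.95 and 22.9 CPM in KO. Wdr77, the protein partner, was the third, which is a description of 6 libraries. Among the 28 pairs of members, Prmt5 and Wdr77 were closest, and Prmt1 and Prmt2 were farthest apart at 2.40. The 7 largest differences all involved Prmt1.

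The type III enzyme gene Prmt7 (ENSMUSG00000060098, chromosome 8 from 106210936 to 106252794, plus strand) encodes the enzyme that makes monomethylarginine. It was at 151, 86.0 and 60.6 CPM in WT and at 76.6, 110.5 and 62.1 CPM in KO. WT replicate 1 was the highest library and the library labelled WT replicate 3 the lowest, so the WT group enclosed all 3 KO libraries. In Prmt7 the log2 fold change was -0.26 (SE 0.37, 95% interval -1.07 to 0.55, edgeR adjusted p 0.997; exact two-sided permutation p 0.7). Without WT replicate 1 it was 0.18, and with replicates 1 and 2 alone it was -0.33.

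**Figure D3:**
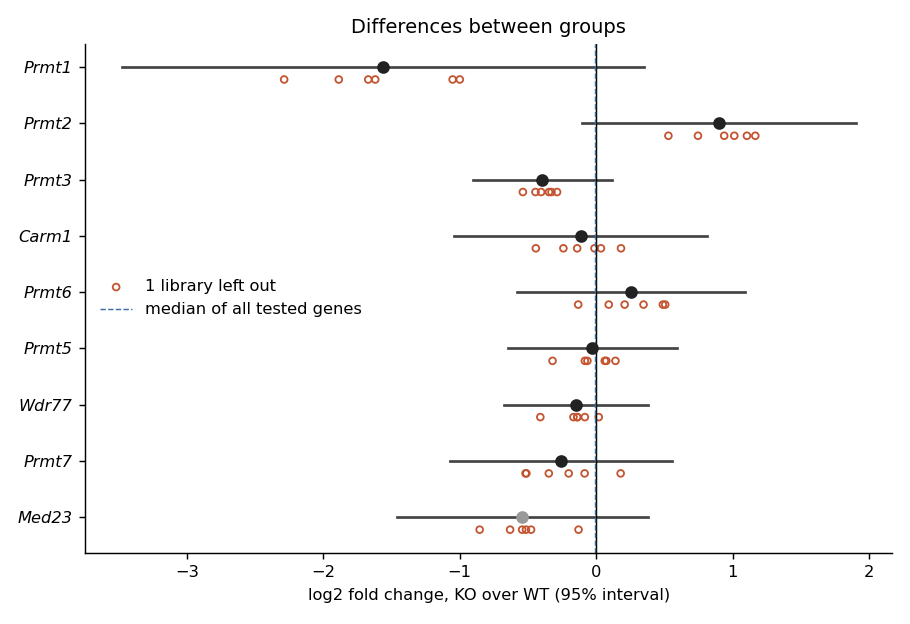
Log2 fold change (KO over WT) of the members and Med23, with 95% intervals derived from the edgeR test statistic. Filled points are for all 6 libraries (grey for Med23) and open points for the fits with each library left out in turn. The dashed line is the median of all tested genes. The intervals of all 8 members hold 0; Prmt1 runs from -2.29 to -0.999 and Prmt2 from 0.53 to 1.17 over the fits without 1 library.

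Levels of different genes were compared per length, as FPKM (counts divided by gene length and by library total). The length behind the deposited FPKM differs for most genes from that of their merged exons: 13.2% of 10354 genes lay within 5% of it. For Prmt1 it is 1362 bases against 3425 bases of merged exons in GENCODE M21, and for Prmt6 8560 bases against 4197. Over all of these genes the median ratio of the deposited to the merged length was 1.26. The order of the members depends on this choice, so both scales are given.

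On the deposited scale the mean FPKM in WT fell in the order Prmt1 (33.9 ± 19.3), Prmt3 (32.3 ± 4.77), Wdr77 (24.6 ± 1.13), Prmt5 (18.6 ± 2.60), Prmt7 (13.5 ± 6.998), Prmt6 (5.62 ± 1.78), Prmt2 (5.35 ± 2.96) and Carm1 (3.95 ± 1.68; SD, n = 3 each). The place of Prmt1 in that order came from WT replicate 2, where it was at 55.1 FPKM against 35.4 for Prmt3; in WT replicates 1 and 3 Prmt3 (26.8 and 34.8) was above Prmt1 (17.5 and 29.1). Of the 7 neighbouring pairs in that WT order, 3 had ranges over the libraries that did not overlap: Prmt3 above Wdr77, Wdr77 above Prmt5, and Prmt7 above Prmt6. In KO the order of deposited FPKM was Prmt3 (25.6 ± 3.11), Wdr77 (23.1 ± 7.56), Prmt5 (19.0 ± 6.72), Prmt1 (12.2 ± 10.8), Prmt7 (11.6 ± 3.82), Prmt2 (10.2 ± 2.22), Prmt6 (6.93 ± 3.09) and Carm1 (3.81 ± 0.634). There 1 of 7 neighbouring pairs had ranges that did not overlap, Prmt6 above Carm1. Prmt3 made up 23.8% of the summed deposited FPKM of the 8 members in WT and 23.6% in KO, and in WT its level was at percentile 87.6 of all tested genes. Carm1, the lowest by mean in both groups, was at percentile 35.4 in WT and 33.5 in KO. In the library labelled WT replicate 3 Prmt2 (1.93) was below Carm1 (5.16), and in KO replicate 3 Prmt1 (0.572) was below Carm1 (4.27).

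On merged exons, a scale chosen after seeing the data, Wdr77 was the highest member in every library. Its mean level was 45.9 ± 2.11 in WT and 43.1 ± 14.1 in KO (FPKM, SD, n = 3 each). Prmt5 followed at 25.9 ± 3.62 in WT and 26.4 ± 9.34 in KO, and Prmt3 at 24.7 ± 3.65 and 19.6 ± 2.38. On this scale Prmt1 was the fifth in WT (13.5 ± 7.66) and the lowest in KO (4.84 ± 4.29). Its merged length is that of ENSMUSG00000109324, matched by symbol, while its counts were made on ENSMUSG00000052429. The level of Prmt1 on this scale, and the places of other members relative to it, are uncertain to that extent. Prmt2 was the lowest in WT (8.80 ± 4.87) and the fourth in KO (16.8 ± 3.65). The last place of Prmt2 in WT came from the library labelled WT replicate 3 (3.18), since Carm1 was below it in WT replicates 1 and 2. The other 3 members on this scale were Prmt7 (16.2 ± 8.36 in WT and 13.8 ± 4.56 in KO), Prmt6 (11.5 ± 3.62 and 14.1 ± 6.31) and Carm1 (8.92 ± 3.79 and 8.61 ± 1.43). In each group 1 of 7 neighbouring pairs had ranges that did not overlap on this scale.

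**Figure D4:**
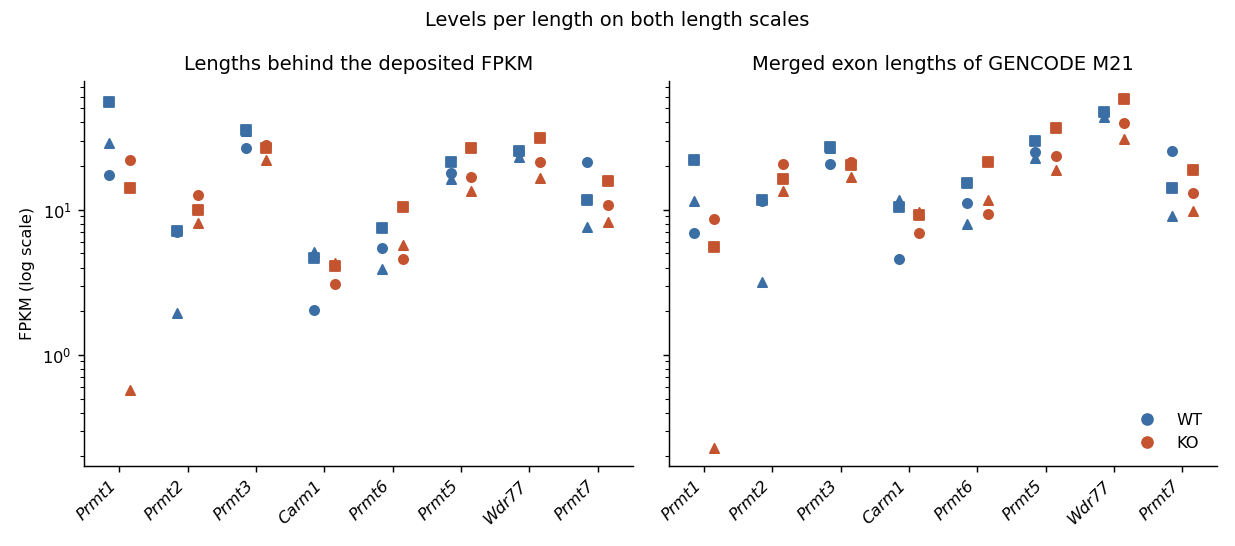
FPKM of the 8 members per library on the deposited length and on merged exon length; the axis is logarithmic, points are libraries and colours are groups. By its mean, which WT replicate 2 raises, Prmt1 is the first in WT on the deposited length and the fifth on merged exons. Wdr77 is the highest on merged exons. The merged length of Prmt1 is that of another gene identifier, matched by symbol, so its level there is uncertain.

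The ratio of Prmt5 to Wdr77, whose proteins form a single complex, was taken within each library from deposited FPKM. It was 0.714, 0.846 and 0.705 in WT and 0.791, 0.845 and 0.821 in KO. The KO libraries lay inside the WT range. The mean ratio was 0.755 ± 0.0786 in WT and 0.819 ± 0.0273 in KO (SD, n = 3 each), so the group means differed by less than the WT spread. On merged exons the ratio was 0.562 ± 0.0585 in WT and 0.610 ± 0.0204 in KO.

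Genes that act with the members were taken from 8 lists set by role. Of the other family members, 3 of 4 were tested, and the remaining Prmt8, a brain enzyme, had 1 count in KO replicate 3. Prmt9, which makes symmetric dimethylarginine and is listed in the deposited tables as Prmt10, was at 12.9, 10.3 and 8.04 CPM in WT and at 18.2, 25.8 and 28.9 CPM in KO. Every KO library was above every WT library, and the log2 fold change of Prmt9 was 1.22 (SE 0.47, edgeR adjusted p 0.772). For Ndufaf7, a mitochondrial arginine methyltransferase, it was -0.43 (edgeR adjusted p 0.989). In this list edgeR called 0 genes, with 1 at an unadjusted p under 0.05 (Prmt9), and DESeq2 and limma voom also called 0.

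Of 6 cofactors and adaptors, 5 were tested, since Copr5 is not in the tables under that symbol while Coprs is. Btg2, which binds and modulates PRMT1, was at 7.18, 13.9 and 13.0 CPM in WT and at 20.7, 25.8 and 66.6 CPM in KO. All KO libraries were above all WT libraries, KO replicate 3 most of all, and the log2 fold change of Btg2 was 1.73 (SE 0.55, edgeR adjusted p 0.578). Clns1a, which encodes the PRMT5 adaptor pICln, had -0.16 (edgeR adjusted p 0.997). The median of the 5 cofactors was -0.16, against -0.0054 over all tested genes. Of 9 readers of methylarginine, Tudor domain genes, 6 were tested, 4 higher and 2 lower in KO, with a median of 0.35. The smallest unadjusted p values among the readers were those of Tdrd7 (log2 fold change 0.79) and Tdrd3 (0.60), both with an edgeR adjusted p of 0.989.

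All 38 genes of known substrates were tested, 14 higher and 24 lower in KO, with a median log2 fold change of -0.023. The acetyltransferase gene Ep300, whose product CARM1 methylates, was at 82.8, 113 and 98.3 CPM in WT and at 162, 198 and 190.2 CPM in KO. Every KO library of Ep300 was above every WT library, by more than the spread within either group, and its log2 fold change was 0.90 (SE 0.22, edgeR adjusted p 0.365). DESeq2 called Ep300 (log2 fold change 0.90, DESeq2 adjusted p 0.0329), while edgeR and limma voom did not. Its relative Crebbp, also a CARM1 substrate, was at 159.9, 120.2 and 198 CPM in WT and at 156, 312 and 400.3 CPM in KO. Crebbp was high in KO replicates 2 and 3 but not in KO replicate 1, so its groups overlapped, and its log2 fold change was 0.86 (SE 0.33, edgeR adjusted p 0.772).

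The cycle that supplies SAM and salvages methionine had 17 of 21 genes tested, 3 higher and 14 lower in KO, with a median log2 fold change of -0.061. Of the untested genes Mat1a and Bhmt, which mark liver, were at 0 in every library, and Gnmt and Cbs had counts in KO replicate 3 alone. The spermidine synthase gene Srm was at 180.2, 214 and 318 CPM in WT and at 109, 200.01 and 111 CPM in KO. KO replicate 2 lay inside the WT range of Srm, and its log2 fold change was -0.76 (SE 0.31, edgeR adjusted p 0.786). The spermine synthase gene Sms was at 20.5, 20.2 and 11.1 CPM in WT and at 37.5, 36.6 and 34.6 CPM in KO. Every KO library of Sms was above every WT library, and its log2 fold change was 1.06 (SE 0.40, edgeR adjusted p 0.768).

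Genes that remove methylarginine or clear it had 5 of 8 tested, 2 higher and 3 lower in KO, with a median of -0.12. In this list the deiminase gene Padi2 had a log2 fold change of 1.78 (SE 0.85, edgeR adjusted p 0.913), with overlapping groups, and Padi4 had 0.33. All 18 genes of the SMN complex and the Sm ring, which PRMT5 methylates in part, were tested: 5 were higher and 13 lower in KO, with a median of -0.29. Gemin6 was at 12.7, 11.3 and 22.9 CPM in WT and at 5.67, 11.1 and 8.70 CPM in KO. Every KO library of Gemin6 was below every WT library, by little in KO replicate 2, but not on the deposited FPKM, where KO replicate 2 (8.09) was above WT replicate 2 (7.92). Its log2 fold change was -0.87 (SE 0.59, edgeR adjusted p 0.989). Strap, with the smallest unadjusted p of this list, had -0.36 (edgeR adjusted p 0.961). All 15 proliferation genes were tested, 6 higher and 9 lower in KO, with a median of -0.18. Ccna2 was at 19.5, 15.1 and 18.9 CPM in WT and at 6.89, 3.09 and 13.6 CPM in KO, all KO below all WT, with a log2 fold change of -1.18 (SE 0.63, edgeR adjusted p 0.933). Mki67, with overlapping groups, had -1.16.

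Over the 8 lists edgeR called 0 genes, limma voom called 0 and DESeq2 called 1 of 103 genes, Ep300, against 1.04% of all genes it tested. At an unadjusted p under 0.05 edgeR had 5 higher (Prmt9, Btg2, Ep300, Crebbp and Sms) and 1 lower (Srm), which is 5.83% of the 103 different genes tested in the lists, against 5.71% of all tested genes. Gemin4 was called when replicates 1 and 2 alone were fitted, with 297, 484 and 47 counts in WT and 1, 0 and 178 counts in KO. The replicate 3 libraries of Gemin4 reverse the order of the others, and it was named after its values were seen.

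**Figure D5:**
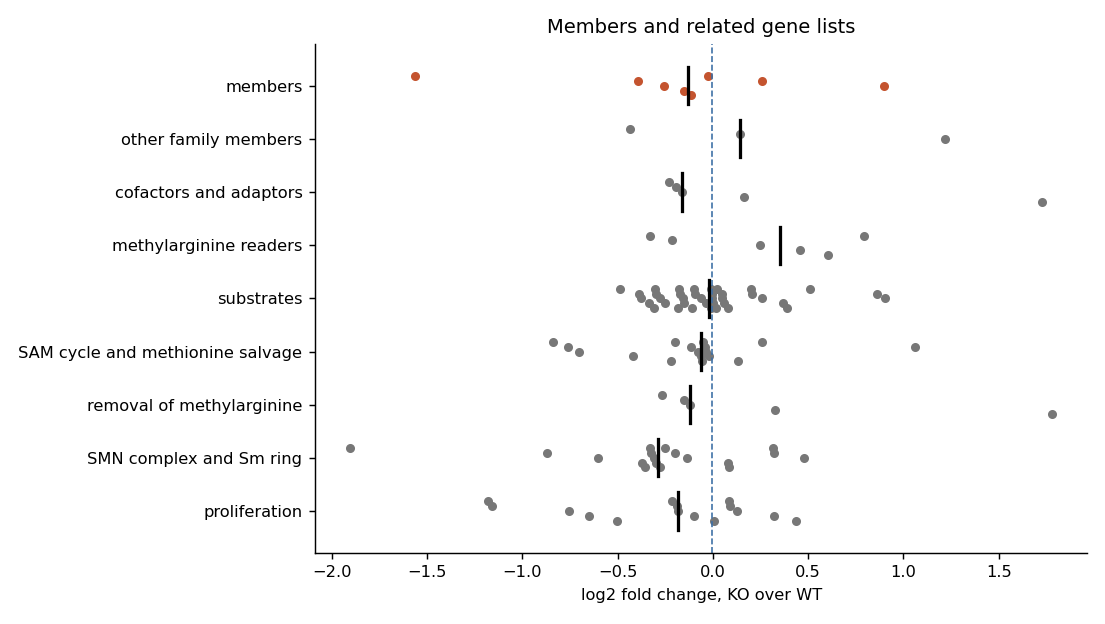
Log2 fold change (KO over WT, edgeR) of every tested gene in the 8 lists and of the members; points are genes, bars the median of a list and the dashed line the median of all tested genes. The medians lie between -0.29 (SMN complex and Sm ring) and 0.35 (methylarginine readers), against -0.0054 over all 12513 tested genes.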

How the data were processed

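Bulk RNA-seq of 3 WT and 3 KO samples was used. Per the labels, the authors aligned reads to mm10 with TopHat and counted them with HTSeq; versions, annotation and strand setting are not given in the sources used here. The deposited count table holds raw counts per gene. The deposited FPKM values equal those counts divided by the total of the column and by 1 length for each gene. Coordinates come from GENCODE M21 (GRCm38, the same build as mm10).

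Counts were fitted in R 4.3.3 with edgeR 4.0.16 (filterByExpr, TMM, robust quasi-likelihood test, no covariate) over all genes, with Benjamini-Hochberg adjustment at 0.05. The SE of a fold change is its size over the square root of the edgeR F statistic, and the interval uses a t quantile. Single members were also compared by an exact two-sided permutation test of log2(CPM + 0.5), over every split of 3 samples against 3. Poisson intervals were taken with scipy 1.17.1. Depth was between 3537269 and 8131344 counts, at which 3 counts correspond to between 0.369 and 0.927 CPM. Scripts were tested on simulated data first. Likeness used tested genes with a mean of at least 50 counts. Copies were searched with blastn 2.17.0, and figures drawn with matplotlib 3.10.9 in Python 3.11.15.

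Alternatives were DESeq2 1.42.0, upper-quartile scaling, no filter, at least 10 counts in every sample, the replicate number as a block, limma 3.58.1 voom with sample quality weights, limma on log2(FPKM + 1), either unfiltered or for genes whose mean FPKM is at least 1, limma on log2(FPKM + 0.1), each sample left out in turn, and replicates 1 and 2 only. Merged exon length and the checks of overlap between groups on FPKM and without single samples, with the shares of all genes, were added after seeing the data. The members and lists were chosen with earlier results of these data known. Named genes are the members, Med23, list genes past the threshold, the 2 genes of each list with the smallest unadjusted p, the 3 genes most like Prmt1 and Prmt5, and cell type markers. Egr1, Gemin4, untested list genes, and genes that overlap or match a member were named outside this rule, after values were seen.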

Additional observations from a re-analysis of the deposited data

How the results depend on the processing

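Members called stayed at 0 under all 16 alternatives. The count of genes called (9) moved to 150 with DESeq2, to 5 with the replicate block, to 0 with limma voom and to 15 with limma on log2(FPKM + 1), and was 5 to 11 without single replicates. The replicate numbers were not taken to pair the samples: deviations of same-numbered samples correlated at 0.134, 0.0268 and 0.130, although each sample correlated best with its own number. The block changed no call among members or lists; with it Prmt1 was at -2.10 (log2). Members with a higher estimate (2) were 5 with replicates 1 and 2 only and 1 to 4 without single replicates. List genes called (0) were 1 with DESeq2 and 1 with replicates 1 and 2 only (Gemin4, log2 fold change -8.99, edgeR adjusted p 0.0238), and 0 without single replicates. Prmt1, Prmt2, Prmt3 and Med23 kept their direction in every alternative that gave a value; Prmt1 gave none with at least 10 counts in every sample. Carm1 reversed to 0.019 with limma voom, to 0.016 with limma on log2(FPKM + 1) (filtered or not), to 0.040 on log2(FPKM + 0.1), to 0.064 with replicates 1 and 2 only, and ran from -0.44 to 0.18 without single replicates. With replicates 1 and 2 only Prmt5 reversed to 0.11 and Wdr77 to 0.040. Without single replicates Prmt5 ran from -0.32 to 0.14, Wdr77 from -0.41 to 0.019, Prmt6 from -0.13 to 0.51 and Prmt7 from -0.52 to 0.18. Members whose groups do not overlap (1, against 6.25% of tested genes with KO above WT and 6.15% below) were 1 on FPKM and 1 to 4 without single replicates: 4 without WT replicate 1, 3 without KO replicate 1 and 3 without KO replicate 2, where 23.3%, 21.04% and 20.4% of all tested genes did not overlap in either direction. The Prmt5 to Wdr77 ratio on merged exons was 0.562 in WT and 0.610 in KO. Apart from changes of length or sample number, the cause was not tested. At the depth of these libraries, 3 counts correspond to between 0.369 CPM (WT replicate 2) and 0.927 CPM (WT replicate 3).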
